A study of Mus musculus with 46 samples.

Results

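Removal of a saline minipump was examined in the nucleus accumbens of DBA/2J mice, as the handling effect that accompanies drug withdrawal when no drug was given. All arrays labelled as DBA/2J with saline were taken, 12 of the 46 in the series. They fall into 6 chronic mice, killed with the pump in place, and 6 withdrawal mice, whose pump was surgically taken out 24 h earlier. Both groups were male, carried an osmotic minipump under the skin for 14 days, received saline alone and were housed 4 to a cage. The series has the same pair of saline groups in C57BL/6J (6 and 6 mice) and a chronic and a withdrawal group on nicotine (24 mg per kg per day) in each strain. DBA/2J and C57BL/6J are inbred strains, so mice of a strain are close to genetically identical. Removal combines a second operation, recovery from it and the end of the saline flow, and these cannot be told apart here. No sham operation is among the groups.

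The nucleus accumbens lies in the ventral striatum and takes part in reward and motivation. Most of its neurons are inhibitory spiny projection neurons that carry dopamine, adenosine and opioid receptors. Surgery activates the adrenal stress axis and inflammatory signalling. In the brain, glucocorticoid hormones then act through their receptor on target genes such as Sgk1 and Tsc22d3, and neuronal activity switches immediate early genes such as Fos and Arc on within minutes and off again within hours. A sample taken a day later can hold what persists from the operation and what happened shortly before death, which cannot be told apart here.

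Expression was read on Affymetrix MTA 1.0 arrays, 1 per mouse, as deposited log2 values. All levels and differences below are log2 units, and each difference is withdrawal minus chronic. The 12 arrays had medians from 6.53 to 6.63, and each correlated at 0.995 to 0.998 with the mean of the other arrays of its group. No 2 arrays held identical values. The tested genes numbered 9589, 1 feature per gene, and only 34 of them lie on chromosomes 1 to 6. Genes elsewhere on these chromosomes were not analysed here. All 28 markers of striatal spiny neurons that had values passed the filter on dim features, as did 21 of 21 cortical excitatory markers, against 4 of 12 of choroid plexus and 7 of 22 of blood leukocytes. Other lists passed nearly or fully as well, such as 21 of 21 endothelial and 19 of 20 microglia markers. The filter also counts arrays of all groups. Passing it thus does not single out a tissue, nor show presence in the 12 arrays alone.

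No gene differed between the mice that kept the pump and those that lost it at an adjusted p under 0.05 (limma, 0% of genes tested, lowest adjusted p = 0.9996). At an unadjusted p under 0.05 there were 389 genes, or 4.06%, where p-values spread evenly would give about 479. Of these, 237 were higher (2.47%) and 152 lower (1.59%) after removal. With the arrays centred on their median the split was 192 higher and 208 lower, and with quantile normalization 214 and 234. A stricter filter on dim features, at the 75th percentile, gave 165 higher and 39 lower, and no filter gave 302 and 354. The direction that prevailed thus depended on the scaling and on how bright the genes kept were. The median difference over all genes was 0.007, and the median standard error was 0.071. The 95% interval of the difference lay within 0.5 of 0, a change of 1.41-fold, for 97.2% of genes, and within 0.25, or 1.19-fold, for 69.8%.

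**Figure D1:**
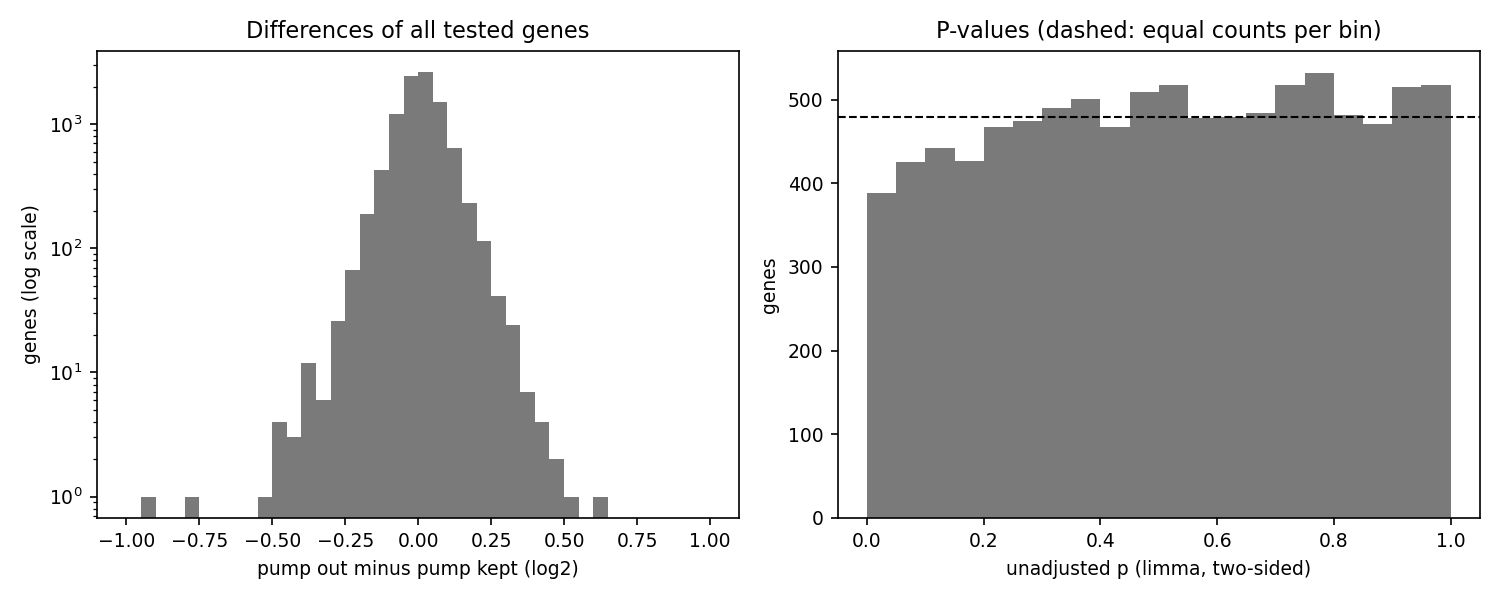
The left panel counts the 9589 tested genes by their difference, withdrawal minus chronic (log2, bins of 0.05, log scale on the y axis), and the right panel counts them by unadjusted limma p. Nearly all differences lie close to 0, and the lowest p bin holds 389 genes, below the dashed line of about 479 expected at equal counts per bin.

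The 6 genes with the smallest p in the upward direction are given first, and none passed. Imp3, a component of the complex that processes ribosomal RNA, stood at 7.76, 7.41, 7.44, 7.46, 7.36 and 7.53 in chronic mice 1 to 6. In withdrawal mice 1 to 6 it stood at 7.61, 8.05, 7.86, 7.88, 7.97 and 7.97. Chronic mouse 1 and withdrawal mouse 1 crossed, and all others were apart. The difference was 0.40 (95% interval 0.15 to 0.64), the group means being 7.49 ± 0.14 and 7.89 ± 0.15 (SD, n = 6 each). H4c6, which encodes a histone H4, stood at 5.84, 5.79, 5.95, 5.99, 5.98 and 6.09 in the chronic mice and at 6.20, 6.09, 6.21, 6.24, 6.29 and 6.57 in the withdrawal mice. Its groups did not overlap, though the closest pair both round to 6.09, and the difference was 0.33 (0.12 to 0.54). The gene was dim, each value lying below the median of its own array (6.53 to 6.63). Smarca1, an ISWI chromatin remodelling ATPase, stood at 11.71, 11.37, 11.76, 11.73, 11.59 and 11.49 against 11.78, 12.16, 11.92, 11.86, 11.71 and 11.66. The groups overlapped at their adjoining ends, and the difference was 0.24 (0.09 to 0.40).

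Zhx1, a zinc finger and homeobox repressor, had the tightest groups of these genes. Its chronic mice stood at 10.47, 10.40, 10.51, 10.51, 10.49 and 10.41 and its withdrawal mice at 10.61, 10.62, 10.58, 10.58, 10.59 and 10.52. No mice overlapped, at a difference of 0.12 (0.05 to 0.20). Pik3c2a, a class II phosphoinositide kinase of membrane traffic, stood at 10.32, 10.35, 9.87, 10.42, 10.52 and 10.46 against 10.41, 10.66, 10.58, 10.61, 10.41 and 10.49. Chronic mouse 3 was far below the rest, and chronic mice 4, 5 and 6 lay among the withdrawal mice. That difference was 0.20 (0.07 to 0.33), and 0.11 without chronic mouse 3. Slc35f4, a member of a family of nucleotide sugar transporters, stood at 8.43, 8.43, 8.39, 8.36, 8.29 and 8.41 against 8.58, 8.59, 8.77, 8.38, 8.45 and 8.66. Withdrawal mouse 4 alone lay within the chronic range, and the difference was 0.19 (0.07 to 0.31).

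Among genes with lower values, Lmnb1 encodes lamin B1 of the inner nuclear envelope. It stood at 7.26, 7.22, 7.32, 7.37, 7.21 and 7.18 in chronic mice 1 to 6 and at 7.05, 7.24, 7.13, 7.05, 7.02 and 7.12 in withdrawal mice 1 to 6. Withdrawal mouse 2 alone lay within the chronic range, and the difference was -0.16 (-0.25 to -0.06). Zfp445, a KRAB zinc finger protein that helps to maintain genomic imprints, stood at 12.27, 12.18, 12.13, 12.25, 12.22 and 12.21 against 12.02, 12.05, 12.13, 11.98, 12.09 and 11.99. Its groups did not overlap, though the closest pair both round to 12.13, at a difference of -0.17 (-0.27 to -0.06). Gprin2, a G protein regulated inducer of neurite outgrowth, stood at 6.35, 7.23, 7.02, 6.79, 7.11 and 6.89 against 6.63, 6.40, 6.68, 6.68, 6.75 and 6.59. Chronic mouse 1 was the lowest of all 12, and the other 5 chronic mice were above every withdrawal mouse. The difference was -0.28 (-0.47 to -0.09).

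Tceal5, of a family related to transcription elongation factor A, stood at 9.85, 10.16, 10.21, 10.08, 10.23 and 9.97 in the chronic mice. In the withdrawal mice it stood at 9.85, 9.71, 10.07, 9.95, 9.81 and 9.63, and the groups overlapped. The difference was -0.25 (-0.40 to -0.09). Fam50b stood at 6.87, 6.83, 6.90, 6.90, 7.18 and 6.79 against 6.72, 6.39, 6.38, 6.88, 6.83 and 6.55. Withdrawal mice 4 and 5 lay within the chronic range, and the difference was -0.29 (-0.48 to -0.09). Rab21, a small GTPase of early endosomes, stood at 13.19, 13.05, 12.91, 13.10, 13.17 and 13.16 against 12.93, 12.81, 12.89, 13.03, 12.95 and 12.94. Chronic mouse 3 lay among the withdrawal mice and the other 5 chronic mice were above all of them. The difference was -0.17 (-0.29 to -0.05).

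**Figure D2:**
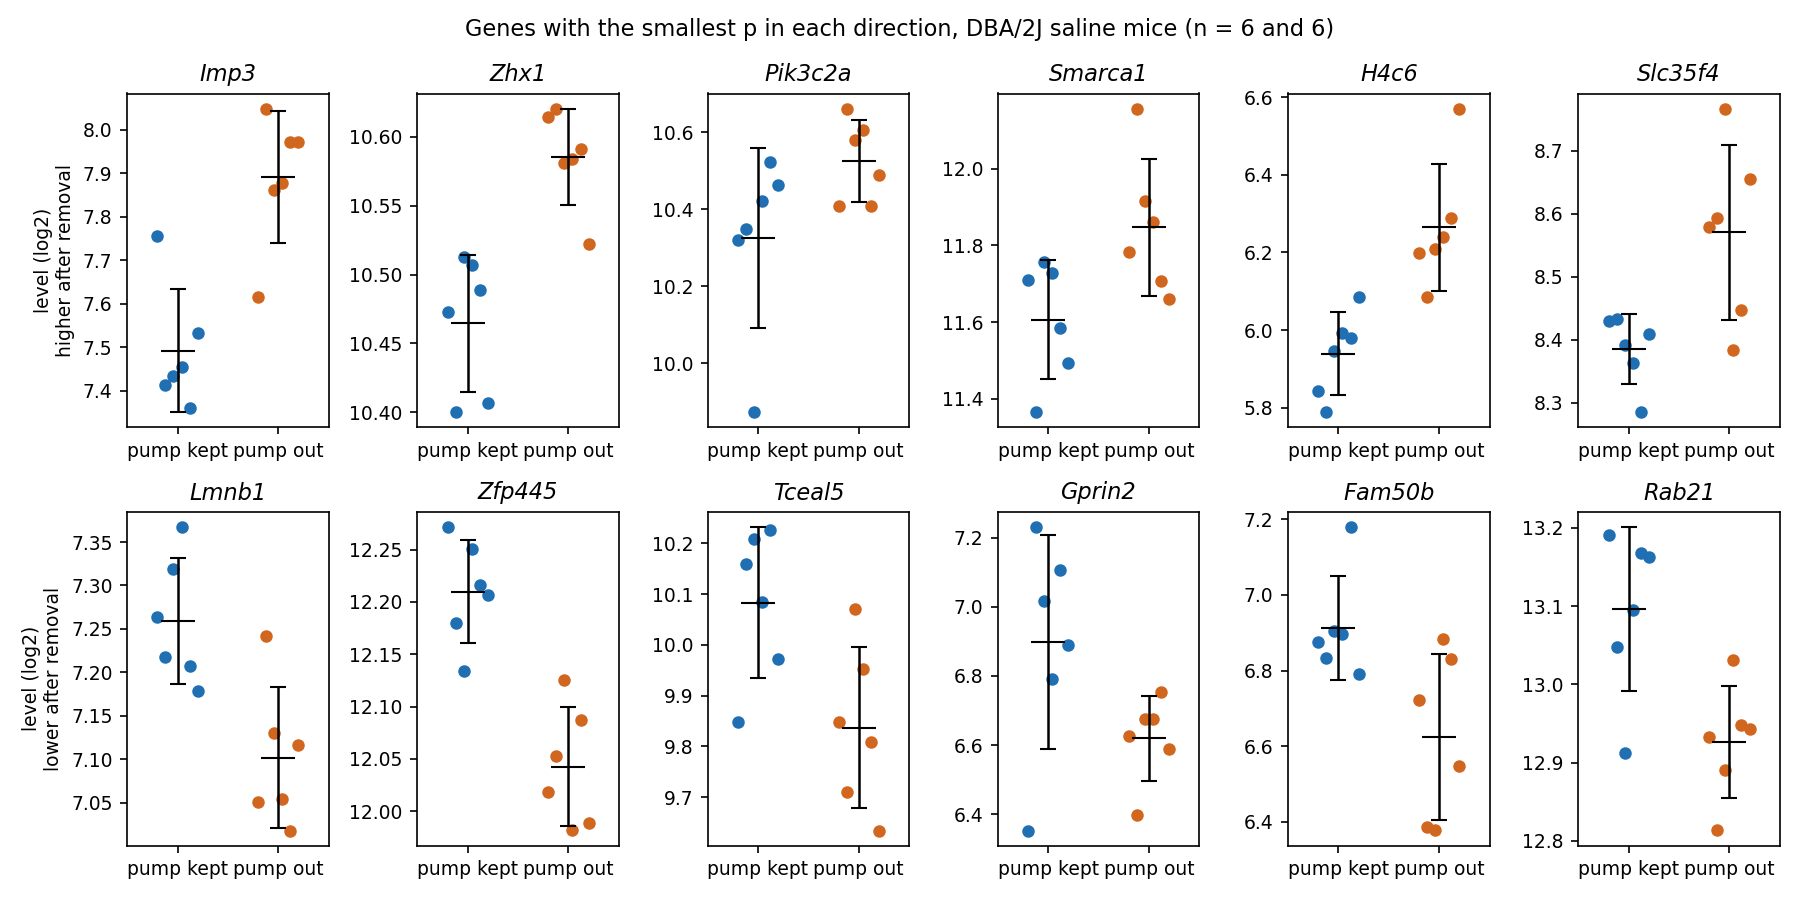
Level (log2) of the 6 genes with the smallest p in each direction, 1 point per mouse, with pump kept in blue and pump out in orange; black marks give mean ± SD (n = 6 each) and the y axes do not start at 0. Zhx1, H4c6 and Zfp445 have groups that do not overlap, and the other 9 genes have at least 1 mouse within the range of the other group. H4c6 is dim, below the array median in every mouse.

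The remaining genes named by rank had smaller or more scattered differences. In the upward direction they were the creatine synthesis enzyme Gamt (0.20), the antigen loading chaperone H2-DMa (0.22), the Y-linked histone demethylase Kdm5d (0.26), the protocadherin Pcdhb8 (0.32), the translation termination factor Gspt2 (0.18), Irak1bp1 (0.15) and the ubiquitin ligase scaffold Cul4b (0.14). The odorant receptor Olfr1321 (0.28) and the vomeronasal receptor Vmn2r84 (0.30) also ranked there. Features of such families, and of protocadherins and histones, can cross-hybridize with near copies, so these values are uncertain. In the downward direction they were the spliceosomal helicase Ddx23 (-0.15), the nucleoplasmin Npm3 (-0.18), the ubiquitin ligase Rffl (-0.13), the serpin Serpinb6b (-0.19), the purine nucleoside phosphorylase Pnp2 (-0.19), Psors1c2 (-0.34), the kallikrein Klk7 (-0.17), the forkhead factor Foxo4 (-0.14) and the mitochondrial co-chaperone Dnajc15 (-0.23).

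Groups that did not overlap were found for 22 genes, 0.229% of those tested, of which 13 were higher (0.136%) and 9 lower (0.0939%). Beyond the ranked genes, and named after their values were seen, the higher ones included the translation initiation subunit Eif3e (0.17), the F-box protein Fbxl17 (0.14), Nudt16l1 (0.16), the chromatin remodelling subunit Smarcc1 (0.08) and Ctxn1 (0.13). The lower ones included the ribosome assembly factor Kri1 (-0.10), the trafficking subunit Trappc6b (-0.12), the transcription factor Rfx2 (-0.09), Arap3 (-0.09), Prr3 (-0.07) and the basement membrane collagen Col4a1 (-0.08). These were small differences between tight groups, and none passed. Random ordering of the mice would separate the groups fully in a similar share of genes. The count of 22 thus does not set removal apart from chance.

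Differences over 0.5 in size were found for 5 genes, named here after their values were seen. The synaptotagmin Syt10, a calcium sensor of vesicle fusion, was lowest, median and highest at 10.72, 11.63 and 11.90 in chronic mice and at 11.27, 12.11 and 12.52 in withdrawal mice. The groups overlapped, with a difference of 0.63 (0.05 to 1.21) that was 0.10 in C57BL/6J and 0.03 in the DBA/2J nicotine groups. Gfra2, the receptor for neurturin, was at 9.83, 10.40 and 11.07 against 9.35, 9.94 and 10.45, a difference of -0.51 (-0.98 to -0.04). Ogn, a small proteoglycan of meningeal fibroblasts, was at 8.59, 9.98 and 10.68 against 7.99, 9.37 and 9.60, a difference of -0.79 (-1.97 to 0.40). The other 2 were predicted genes. Gm11096 (-0.92) had wide groups in both conditions, and leaving out 1 mouse, an alternative added after seeing the data, gave from -1.65 without withdrawal mouse 2 to -0.12 without withdrawal mouse 6. Gm10945 (0.51) rested on withdrawal mouse 2 at 9.99, the other 5 withdrawal mice reaching no more than 8.43, and its difference was 0.23 without that mouse.

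Genes of the adrenal stress response showed no common direction. Of the 26 glucocorticoid responsive genes tested, 0 passed, 10 were higher and 16 lower, with a median of -0.02 beside 0.007 for all genes, of which 54.3% were higher. For 24 of the 26 the 95% interval lay within 0.5 of 0. Sgk1, a kinase induced by glucocorticoids and also abundant in oligodendrocytes, ran from 9.90 to 10.42 (median 9.95) in chronic mice and from 10.04 to 10.73 (median 10.22) in withdrawal mice. All 6 withdrawal mice were above the chronic mean, the groups overlapped, and the difference was 0.29 (0.01 to 0.57). Tsc22d3, a leucine zipper protein that mediates anti-inflammatory actions of glucocorticoids, differed by 0.02 (-0.11 to 0.15), and the receptor gene Nr3c1 by -0.02 (-0.15 to 0.10). Azin1 (-0.08), the transcription factor Zbtb16 (-0.19) and the lipase Pnpla2 (-0.10) had the next smallest p in the list. The list median was 0.02 without chronic mouse 6 and -0.05 without chronic mouse 4.

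Immediate early genes were lower in 18 of 24 tested members, with a median of -0.09, and 0 passed. Fos, a transcription factor induced by activity, ran from 6.93 to 8.24 (median 7.56) in chronic mice and from 6.69 to 7.84 (median 7.49) in withdrawal mice. The groups overlapped almost fully, and the difference was -0.23 (-0.79 to 0.33). Npas4, an activity-dependent transcription factor of neurons, differed by -0.46 (-1.26 to 0.35), Nr4a1, a nuclear receptor, by -0.27 (-1.15 to 0.61) and the synaptic gene Arc by -0.16 (-0.89 to 0.57). Egr1 stood at -0.13, Fosb at -0.10 and Junb at 0.03. The members with the smallest p were Arl4d (-0.15), the kinase Sik1 (-0.17) and the phosphatases Dusp6 (-0.31) and Dusp14 (-0.10). For 17 of the 24 the interval lay within 0.5 of 0. The median moved to -0.04 without withdrawal mouse 5 and to -0.13 without chronic mouse 3, the mice with the lowest list means of their groups.

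The 18 circadian clock genes tested had 13 higher and 5 lower members, a median of 0.04 and 0 calls. Without withdrawal mouse 2 that median was 0.020. Csnk1d, a kinase that sets clock speed, differed by -0.10 (-0.19 to -0.01), and by -0.053 without the same mouse. The nuclear receptor genes Nr1d2 (0.10) and Nr1d1 (0.13) and the output factors Hlf (0.11) and Dbp (0.12) had intervals that include 0, as did Tspan4 (0.10). Per1, which both the clock and glucocorticoids induce, differed by 0.004 (-0.18 to 0.19). The hour of death is not given in the sources used here.

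Other stress pathways gave no calls either. Heat shock and chaperone genes were higher in 9 and lower in 9 of 18, with Cct2 at 0.16, Cct5 at 0.08, Hspa9 at -0.09 and Hsf2 at 0.06. Unfolded protein response genes were lower in 11 of 15 (median -0.01), among them Sdf2l1 (-0.19), Canx (-0.10), Dnajb9 (-0.07) and Pdia6 (-0.13). Acute phase and inflammation genes were lower in 7 of 9 (median -0.03), with Nfkbiz at -0.03, Saa1 at -0.08, Stat3 at -0.03 and Cebpd at 0.05, and all 9 intervals lay within 0.5 of 0. Interferon response genes were lower in 10 of 15 (median -0.05), with Trim30a at -0.14, Parp14 at -0.14, Ifit3 at -0.20 and Xaf1 at -0.14. These medians depended on single mice. The heat shock median was -0.016 without chronic mouse 3 and 0.024 without withdrawal mouse 1, and the unfolded protein median -0.064 without chronic mouse 2 and 0.0023 without chronic mouse 1. The inflammation median was -0.093 without withdrawal mouse 6 and 0.010 without withdrawal mouse 1, and the interferon median -0.084 without chronic mouse 1.

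Metabolic lists were mixed. Hypoxia and glycolysis genes were lower in 12 of 21 (median -0.02), with Pfkp at -0.16, Hk1 at -0.13, Vegfa at -0.12 and Bnip3 at 0.07. Antioxidant and glutathione genes were higher in 15 of 21 (median 0.05), led by the superoxide dismutase Sod1 (0.20), the glutathione transferase Gstt1 (0.20), Gpx4 (0.15) and Gsr (0.14). Cholesterol biosynthesis genes were lower in 13 of 23 (median -0.02), with Dhcr7 at -0.16, Scd2 at -0.09, Fdft1 at 0.09 and Fads2 at -0.10. None of these members passed. The hypoxia median was -0.045 without withdrawal mouse 3 and 0.0061 without chronic mouse 6. The cholesterol median was -0.046 without withdrawal mouse 6 and 0.021 without chronic mouse 6, so both turned with the mice included.

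Markers of the spiny neurons, the main cell type, were higher in 17 of 28 members with a median of 0.04 (-0.02 without chronic mouse 3 and 0.09 without withdrawal mouse 6) and 0 calls, and all 28 intervals lay within 0.5 of 0. The dopamine D2 receptor gene Drd2 ran from 12.94 to 13.68 in chronic mice and from 13.12 to 13.81 in withdrawal mice, a difference of 0.13 (-0.16 to 0.42). The dopamine D1 receptor gene Drd1 differed by -0.03 (-0.31 to 0.24), Drd3 by 0.01 (-0.38 to 0.41), the adenosine receptor gene Adora2a by 0.04 (-0.27 to 0.34) and Ppp1r1b, the dopamine signalling protein DARPP-32, by 0.08 (-0.22 to 0.37). The members with the smallest p were the transcription factor Bcl11b (0.11), Rasd2 (0.12), Dgkb (0.09) and Rasgrp2 (0.08). Chrna7, a nicotinic receptor subunit, differed by 0.04 (-0.11 to 0.18).

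Peptide, trophic and interneuron lists had more lower than higher members and gave 0 calls. Opioid and neuropeptide genes were lower in 14 of 22 (median -0.03), with Nmb at 0.15, Sstr1 at -0.11, Vip at -0.29 and Pomc at -0.10. Neurotrophin signalling genes were lower in 5 of 9 (median -0.02). Gfra2 was the widest of them, while Kidins220 (-0.07), Sorcs1 (0.08) and Ngfr (0.06) were close to 0. Cholinergic neuron genes were lower in 3 of 5 (median -0.08), with Zic4 at -0.11, Chrm1 at 0.07, Chat at -0.08 and Slc18a3 at 0.08. Other interneuron genes were lower in 7 of 10 (median -0.08), among them Vip, Chodl (-0.10), Htr3a (-0.11) and Calb2 (-0.22). The cholinergic median was 0.00097 without chronic mouse 1 and 0.0026 with array weights, and the interneuron median -0.026 without withdrawal mouse 4. Leaving out withdrawal mouse 4 also moved the neuropeptide median to -0.0031, against -0.059 without withdrawal mouse 6. The neurotrophin median was -0.042 without chronic mouse 2 and 0.018 without withdrawal mouse 3.

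Markers of neighbouring tissue varied more between mice than between groups. Cortical excitatory neuron genes were lower in 13 of 21 with a median of -0.06, with Etv1 at 0.13, Dkk3 at -0.15, Hs3st2 at -0.24 and Nptx1 at -0.15. Their mean ran from -0.29 to 0.24 in chronic mice and from -0.61 in withdrawal mouse 4 to 0.29 in withdrawal mouse 6, and without withdrawal mouse 4 the median turned to 0.08, while without chronic mouse 4 it was -0.12. Olfactory tubercle and ventral striatum genes were higher in 11 of 20 (median 0.01), with the imprinted gene Ndn at 0.19, Synpr at 0.19, Dlk1 at 0.30 and Zic2 at -0.19. Septal and hypothalamic neuron genes were lower in 7 of 9 (median -0.10), with Zic1 at -0.26, Zic4, Pomc and Dgkg among them. Choroid plexus genes split evenly, 2 and 2 of 4 (median -0.03), with Sostdc1 at -0.15, Clic6 at -0.08, Kcne2 at 0.05 and Enpp2 at 0.02. The choroid plexus median was 0.021 without chronic mouse 5 and -0.067 without withdrawal mouse 4. The olfactory tubercle median was -0.0082 without chronic mouse 2 and 0.060 without chronic mouse 1.

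Genes of the meninges and fibroblasts were lower in 18 of 19 tested members with a median of -0.22, farther below 0 than any other of the 33 lists, and 0 passed. Islr, a leucine-rich repeat protein of mesenchymal cells, ran from 6.61 to 7.55 (median 7.47) in chronic mice and from 6.32 to 7.26 (median 6.85) in withdrawal mice. The groups overlapped, and the difference was -0.47 (-0.92 to -0.02). The collagen Col12a1 differed by -0.22 (-0.43 to -0.02), Cemip by -0.09 and Slc47a1 by -0.24. The list mean ran from -0.18 to 0.35 in chronic mice and from -0.39 to 0.09 in withdrawal mice. Chronic mouse 3 (0.35) and chronic mouse 2 (0.26) were highest and withdrawal mouse 1 (-0.39) and withdrawal mouse 2 (-0.28) lowest. The median was -0.17 without withdrawal mouse 1 and -0.27 without chronic mouse 4. In bulk tissue, fewer cells of a type and less RNA per cell cannot be told apart.

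Vessel markers had lower values beside them. Endothelial genes were lower in 19 of 21 (median -0.06), with the tight junction gene Ocln at -0.12, the transporter Slc22a8 at -0.37, Adgrf5 at -0.10 and Pecam1 at -0.08. Pericyte and smooth muscle genes were lower in 10 of 10 (median -0.07), with Atp13a5 at -0.12, Higd1b at -0.08, Acta2 at -0.15 and Anpep at -0.13. Withdrawal mice 1 and 2 were the lowest of all 12 for both vessel lists, at -0.17 and -0.14 for endothelium and at -0.16 and -0.08 for pericytes. The share of these tissues in the dissected pieces was not tested. Leaving out withdrawal mouse 2 moved the endothelial median to -0.04, and leaving out withdrawal mouse 1 moved the pericyte median to -0.05.

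Glial lists had medians from -0.05 to 0.01 and 0 calls. Oligodendrocyte genes were higher in 12 and lower in 12 of 24 (median 0.00), with Fa2h at 0.13 and Klk6 at 0.13. Oligodendrocyte precursor genes were lower in 8 of 13 (median -0.04). Olig2, the transcription factor of that lineage, had the smallest p of them (-0.25, from -0.45 to -0.04), with Sox10 at -0.15, Bmp4 at -0.17 and Gpr17 at -0.15. Astrocyte genes were lower in 17 of 22 (median -0.05), with Mlc1 at -0.14, Slc1a3 at -0.10, Gja1 at -0.08 and Aqp4 at -0.11. Withdrawal mouse 1 was lowest for that list (-0.18), and without it the median was -0.01, against -0.08 without withdrawal mouse 4. Microglia genes were higher in 12 of 19 (median 0.01), with Sall1 at -0.13, Cd68 at 0.16 and Cd83 at 0.07. The oligodendrocyte median was -0.039 without withdrawal mouse 6 and 0.047 without withdrawal mouse 2, and the precursor median -0.00079 without chronic mouse 1 and -0.073 without withdrawal mouse 6. The microglia median was -0.018 without chronic mouse 4 and 0.036 without withdrawal mouse 2.

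Ependymal cilia genes were higher in 7 of 9 (median 0.12), with Cfap54 at 0.16, Ccdc113 at 0.14, Spag6 at 0.12 and Rsph4a at 0.24. The median was 0.015 when dim features were kept in, which let all 23 members with values count, and 0.074 without withdrawal mouse 1. Blood leukocyte genes were lower in 5 of 7 (median -0.05), with F13a1 at -0.23, Stab1 at -0.05, Ccr7 at -0.10 and Cd74 at -0.14, and their median was -0.099 without withdrawal mouse 1. Red cell genes were higher in 5 of 6 (median 0.13), but their chronic mice alone spanned -0.59 in mouse 5 to 0.45 in mouse 3. The median was 0.057 without chronic mouse 5 and 0.25 without chronic mouse 3. The haemoglobin gene Hba-a1 ran from 12.08 to 14.62 in chronic mice and from 13.24 to 14.43 in withdrawal mice, a difference of 0.40 (-0.19 to 0.99). Hbb-bt was at 0.27, Hbb-bs at 0.19 and the haem enzyme gene Fech at 0.07.

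Genes of oxidative phosphorylation, the mitochondrial chain that makes ATP, were higher in 45 of 50 tested members. The median was 0.08 beside 0.007 for all genes, 0 passed, and 4 reached an unadjusted p under 0.05, which is 4 of 50 beside 2.47% of all genes in that direction. The same count was 2 of 13 for histone, 2 of 9 for ependymal cilia and 2 of 21 for antioxidant genes. It was 0 of 28 for spiny neuron genes, so it does not single out oxidative phosphorylation. Over the brighter genes that the stricter filter kept, the median of all genes was 0.015. Uqcr10, a subunit of complex III, ran from 9.18 to 9.72 (median 9.31) in chronic mice and from 9.45 to 10.02 (median 9.67) in withdrawal mice. The groups overlapped, and the difference was 0.31 (0.07 to 0.55). Cox8a (0.22) and Cox4i1 (0.22) of complex IV and Ndufb11 (0.25) of complex I followed. The list mean ran from -0.11 to 0.07 in chronic mice, with chronic mouse 6 alone above 0, and from -0.05 in withdrawal mouse 1 to 0.09 in withdrawal mouse 6. The median was 0.06 after quantile normalization and 0.10 without withdrawal mouse 1. For 49 of the 50 the interval lay within 0.5 of 0.

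Proteasome genes were higher in 20 of 25 (median 0.05), with Psmd11 at 0.11, Psmb1 at 0.15, Psmb3 at 0.14 and Psmd6 at 0.06. That median was 0.03 without chronic mouse 3 and 0.08 without chronic mouse 6. Of cytosolic ribosomal protein genes only 3 were tested, Rpl41 (0.36), Rpl7a (0.20) and Rpl31 (-0.01), and many ribosomal genes have near copies that the array cannot always separate.

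Clustered histone genes, which encode the core and linker histones of chromatin, were higher in 12 of 13 members with a median of 0.20, the highest of the 33 lists, and 0 passed. H4c4 ran from 11.76 to 12.03 (median 11.93) in chronic mice and from 11.99 to 12.48 (median 12.17) in withdrawal mice. The groups overlapped over a narrow stretch, and the difference was 0.30 (0.06 to 0.55). H1f2 stood at 0.24, H3c1 at 0.24 and H2ac4 at 0.25. H4c6, described above, is not in the list. The list mean was below 0 in all 6 chronic mice (-0.17 to -0.003) and ran from -0.003 to 0.17 in withdrawal mice. The groups did not overlap in this mean, but their nearest mice were separated only in the next decimal place. None of the 13 members separated the groups alone. The list is also the highest of 33, so the separation of its mean is no test of removal. The median was 0.15 to 0.23 over the alternatives that each left out 1 mouse. Histone genes are close copies of each other and cross-hybridization would make them move together, so the members are not independent.

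**Figure D3:**
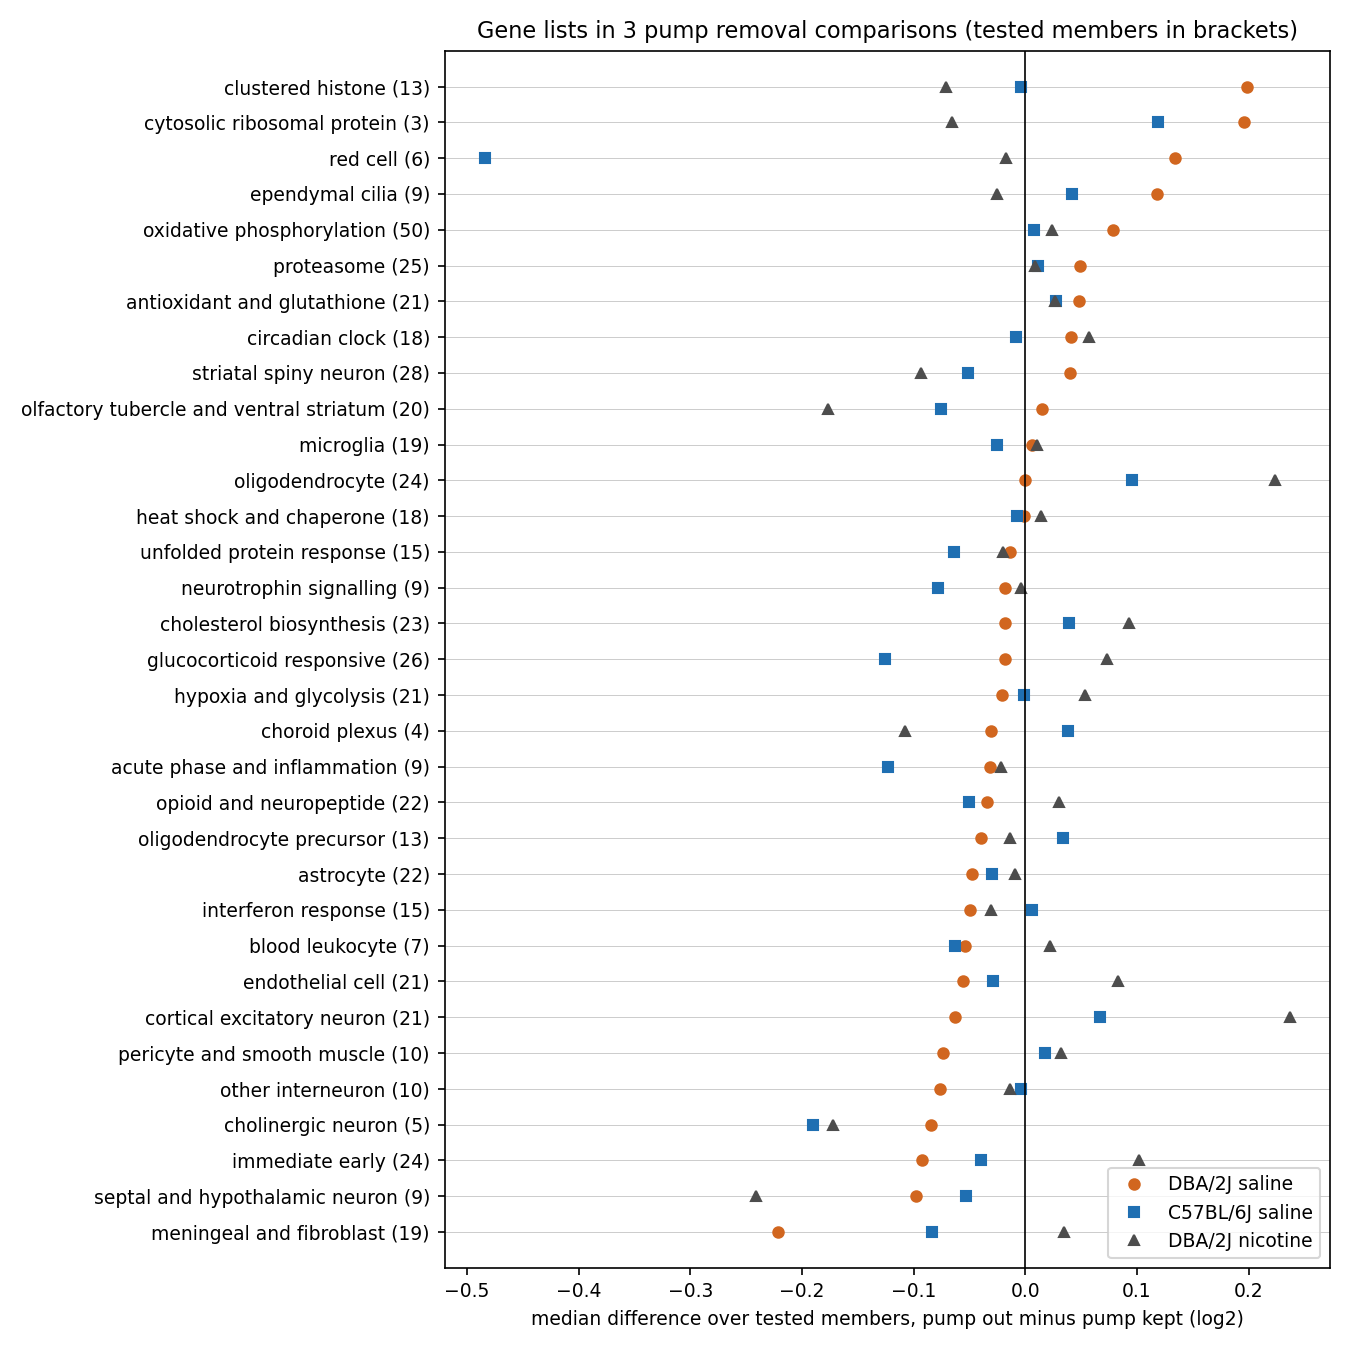
Median difference (log2, withdrawal minus chronic) over the tested members of each of 33 gene lists, with the number tested in brackets, for removal in DBA/2J saline mice (orange circles), C57BL/6J saline mice (blue squares) and DBA/2J nicotine mice (grey triangles). Among DBA/2J saline mice the medians run from -0.22 for meningeal and fibroblast genes to 0.20 for clustered histone genes, and the red cell median of C57BL/6J (-0.48) lies farthest from 0.

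Y-linked genes rested on a few withdrawal mice. Kdm5d stood at 9.80, 9.54, 9.68, 9.64, 9.80 and 9.65 in chronic mice 1 to 6 and at 10.18, 9.73, 9.70, 9.82, 10.50 and 9.73 in withdrawal mice 1 to 6. Withdrawal mice 5 and 1 were the highest of the 12, and the other 4 lay near the chronic mice. Its difference of 0.26 (0.08 to 0.44) was 0.15 without withdrawal mouse 5. The same 2 mice were highest for the demethylase gene Uty (0.23, and 0.12 without mouse 5), the RNA helicase Ddx3y (0.21, and 0.08) and the translation initiation factor Eif2s3y (0.21, and 0.11). Of all 21 tested Y-linked genes, most of them predicted, 7 were higher and 14 lower. The 4 genes thus shared the same pair of high mice.

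**Figure D4:**
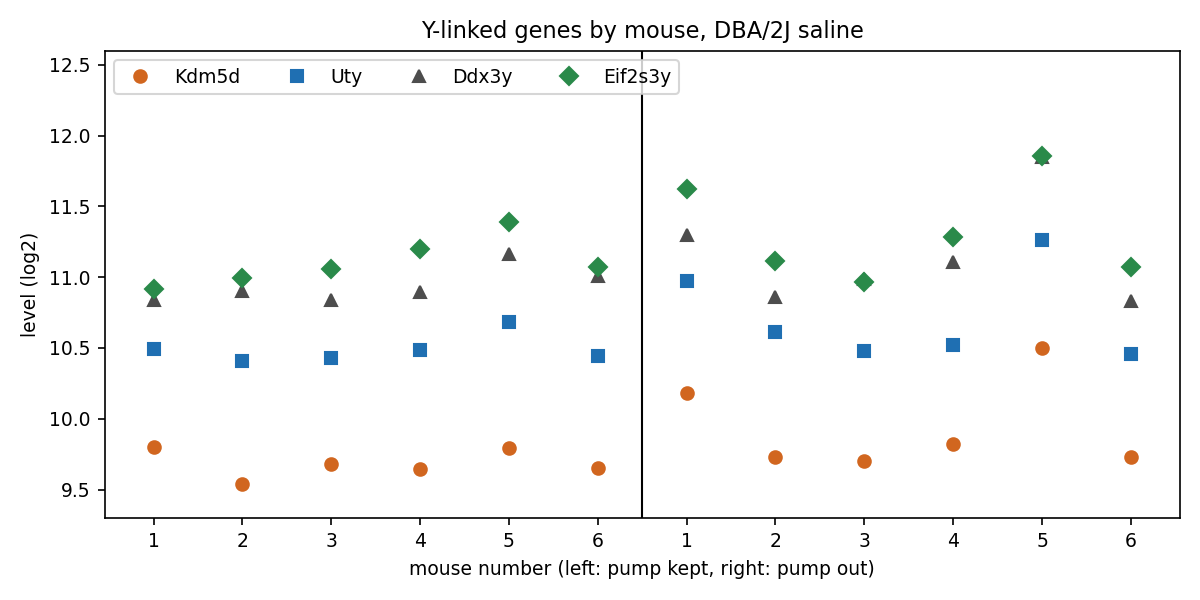
Level (log2) of 4 Y-linked genes in each of the 12 DBA/2J saline mice, 1 symbol per gene, with pump kept on the left and pump out on the right; the order of mouse numbers has no meaning. Withdrawal mice 5 and 1 have the highest values of all 4 genes, such as 10.50 and 10.18 for Kdm5d.

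Mice of the same group differed along a few axes. The leading component of the deviations from the group means took 22.1% of the spread. Among the genes that weighed most on it, at one end lay Abi3bp, the peptide gene Cck, Ccn3, the vesicular glutamate transporter Slc17a7 and Nrn1, and at the other Gpr101, Arhgap36, Syt10, Htr1b, Crym and the neurotensin gene Nts. Withdrawal mouse 4 (-11.2), chronic mouse 4 (-8.24) and chronic mouse 5 (-7.19) were at the second end and withdrawal mouse 6 (8.37) and withdrawal mouse 3 (6.32) at the first. The deviations were taken from each group's own mean, so both groups had to span the axis. Its relation to removal was not tested. Cck ran from 8.67 to 10.04 in chronic mice and from 7.23 to 9.84 in withdrawal mice, and Nr4a1 from 9.70 to 12.10 and from 9.99 to 11.98. The next component (17.5%) set chronic mouse 1 (-17.1) apart from the other 11 (from -2.58 to 5.36). Without chronic mouse 1 there were still 0 calls (lowest adjusted p = 0.258), with 500 genes at an unadjusted p under 0.05, the oxidative phosphorylation median was 0.07, the histone median 0.20 and the immediate early median -0.05.

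**Figure D5:**
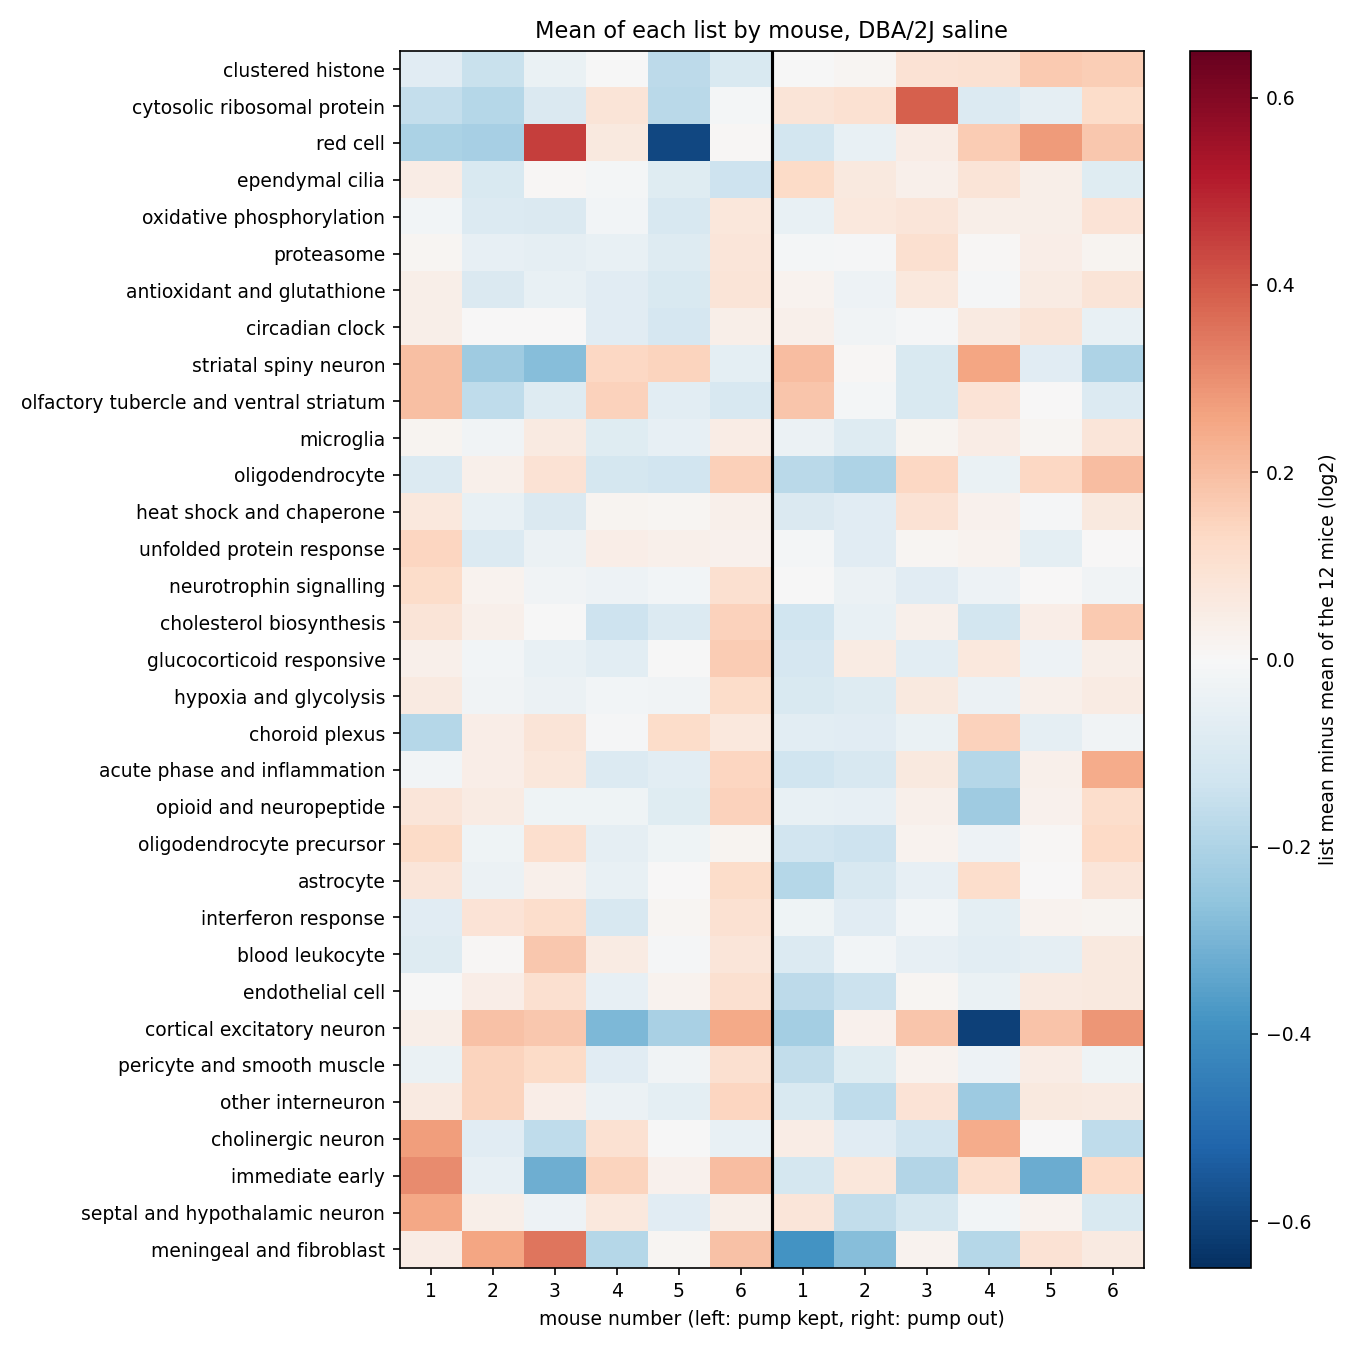
Mean over the tested members of each list in each of the 12 DBA/2J saline mice, as colour, in log2 units relative to the mean of the 12. Mice differ within both groups, as in the cortical excitatory list (-0.61 in withdrawal mouse 4) and the red cell list (-0.59 and 0.45 in chronic mice 5 and 3), while clustered histone genes are below 0 in all 6 chronic mice. None of the 13 histone members separated the groups alone.

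The same handling in C57BL/6J served to ask what was particular to DBA/2J. It gave 0 calls too (0%, lowest adjusted p = 0.998), with 359 genes (3.74%) at an unadjusted p under 0.05. The strain difference itself also gave 0 calls (0%, lowest adjusted p = 0.99996), with 280 genes at an unadjusted p under 0.05, or 2.92%. Its smallest p values belonged to Psors1c2 (-0.34 in DBA/2J and 0.33 in C57BL/6J), the glycine receptor subunit Glra3 (0.18 and -0.34), the vomeronasal receptor Vmn2r87 (0.16 and -0.24), D10Wsu102e (-0.16 and 0.10) and Hbb-bt (0.27 and -0.75). None of these differences between strains passed, and no pattern can be called particular to DBA/2J. Across the 9589 genes the differences of the 2 strains, which share no arrays, correlated at r = 0.126, and genes are not independent replicates. Gamt was close in both strains (0.20 and 0.21).

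Several lists stood apart by value between the strains, without a test. The red cell median was 0.13 in DBA/2J and -0.48 in C57BL/6J, and the glucocorticoid median was -0.02 and -0.13. Histone genes were at 0.20 and 0.00, oxidative phosphorylation at 0.08 and 0.01, and meningeal and fibroblast genes at -0.22 and -0.08. Sgk1 was at 0.29 in DBA/2J and -0.21 in C57BL/6J, and the strain difference for it did not pass (adjusted p = 0.99996).

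Removal of a nicotine pump in the same strain, 6 chronic and 5 withdrawal mice, gave 0 calls (0%), with 359 genes (3.74%) at an unadjusted p under 0.05. Whether removal differed between saline and nicotine mice was tested directly and gave 0 calls (0%, lowest adjusted p = 0.981), with 356 genes (3.71%) at an unadjusted p under 0.05. The smallest p values belonged to the chromatin protein Hmgb2 (0.14 under saline and -0.23 under nicotine), Ndn (0.19 and -0.27), the sorting factor Vps37c (-0.13 and 0.20), Arxes2 (0.25 and -0.20) and Olfr1321 (0.28 and -0.16). Immediate early genes were at a median of -0.09 under saline and 0.10 under nicotine, and oligodendrocyte genes at 0.00 and 0.22. Cortical excitatory genes were at -0.06 and 0.24 beside them, and their part in those values was not tested. Medians of opposite sign were also found for histone genes (0.20 and -0.07) and for meningeal and fibroblast genes (-0.22 and 0.03). The same held for endothelial (-0.06 and 0.08), pericyte (-0.07 and 0.03) and glucocorticoid responsive genes (-0.02 and 0.07). Oxidative phosphorylation kept its sign (0.08 and 0.02). Differences between these medians were not tested. Across genes the removal differences of the saline and the nicotine mice, which share no arrays, correlated at r = -0.0982.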

How the data were processed

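RNA of the nucleus accumbens was measured on 46 arrays, 1 per male mouse, with RNA integrity numbers above 8 per the labels' protocols. The log2 values are those the authors deposited, and the medians of all arrays lay between 6.52 and 6.63. How probes were summarised and arrays scaled is not given in the sources used here. A second table the authors deposited holds score values per nicotine mouse, which were not used, and supplied gene names and coordinates. Symbols were updated through RefSeq (GRCm38.p6), and 98.8% of 15074 named features overlapped the gene of that name. Of 48088 features, 6732 are controls and 16464 carry 1 gene symbol.

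The brightest feature of each gene was kept if it was above the array's own 50th percentile, taken without controls, on at least 5 arrays, which left 9589 of 16295 genes. All 46 arrays entered a single linear model with a mean per group (limma 3.58.1, R 4.3.3). Its moderated two-sided tests had 38 degrees of freedom from the residuals plus 4.14 from the prior, and p-values were adjusted per contrast by Benjamini-Hochberg at 0.05. Files were read with the R package data.table, version 1.17.8, and plots used matplotlib 3.10.9 in Python 3.11.15. The pipeline was tested on simulated data in which genes varied independently. That test thus gives no measure of power on these arrays. Lists (33, with 559 of 1164 entries tested) are described by counts and medians only, and list means per mouse are centred on the 12 mice.

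Named genes are the 15 with the smallest p in each direction, the 4 with the smallest p in each list and the 5 with the smallest p in each interaction, without predicted genes; genes named for their role, for a difference over 0.5, for groups that do not overlap or for their spread within groups were chosen after their values were seen. A few genes that the rule names are not reported here. The members, lists and tests were chosen with earlier results of these data known. Mouse numbers are labels of separate mice, so mice are the replicates. The spread behind each p-value is that between mice, pooled over all groups of the series. A limma fit of only the groups compared gave 0 calls (lowest adjusted p = 0.334, with 460 genes at an unadjusted p under 0.05). The labels give no cage, batch or surgery date, so whether mice shared these could not be taken into account. Depth does not apply to arrays, whose number limits the precision. Alternatives were other filters, scalings, feature summaries and fits, a replicate block and each mouse left out. Another took the oligodendrocyte and cortical list means of the same arrays as covariates. Meningeal, vessel and blood lists were not among the covariates.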

Additional observations from a re-analysis of the deposited data

Results flagged for a closer look

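In 21 of 432 groups of 6 mice checked, 1 mouse stood apart from the others of its group by more than Dixon's 95% critical value, 0.625 for 6 mice. Chance gives this in about 1 in 20 groups. Of the genes with the smallest p, Pik3c2a was low in chronic mouse 3 (9.87), Irak1bp1 high in chronic mouse 1 (9.94), Fam50b high in chronic mouse 5 (7.18), Npm3 high in withdrawal mouse 3 (7.08) and Pnp2 low in chronic mouse 2 (8.55). Among signalling and stress genes, Chrm1 was low in chronic mouse 5 (10.3), Sgk1 high in chronic mouse 6 (10.4), Nr4a1 low in chronic mouse 3 (9.70), Nr3c1 high in chronic mouse 1 (10.6), Kidins220 low in chronic mouse 2 (13.4) and Pomc high in withdrawal mouse 1 (6.69). Among cell type markers, Sall1 was high in withdrawal mouse 4 (8.34), Cd68 low in chronic mouse 5 (8.93) and Higd1b low in chronic mouse 1 (6.05). H1f2 was high in withdrawal mouse 4 (6.91), Rpl7a low in chronic mouse 1 (11.9), Cox8a high in withdrawal mouse 6 (16.3), Cox4i1 high in withdrawal mouse 3 (9.72) and Uty high in chronic mouse 5 (10.7). Of list means, that of choroid plexus genes was high in withdrawal mouse 4 (0.15) and that of oxidative phosphorylation genes low in withdrawal mouse 1 (-0.049).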

How the results depend on the processing

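Each of the 4 counts of genes past the threshold was 0 under every alternative run, 22 for removal in DBA/2J saline mice, 22 in C57BL/6J saline mice, 34 for the strain difference and 33 for the drug difference. The lowest adjusted p over these was 0.101, 0.4785, 0.607 and 0.103. For DBA/2J saline mice the genes at an unadjusted p under 0.05 numbered 204 with the stricter filter, 656 with none and 601 with array weights. The replicate block on mouse number gave 0 calls in DBA/2J saline mice (lowest adjusted p = 0.101, with 479 genes at an unadjusted p under 0.05). The labels state no pairing by number. Deviations of same-numbered mice correlated at -0.199 to 0.316 and those of different-numbered mice at -0.362 to 0.266. Of the chronic mice, 3 of 6 were closest to their own number. Whether the numbers mark a pairing cannot be told from these values.

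Of 3803 alternative values for 176 named genes in that comparison, 3761 kept their direction. The 42 others belong to 13 genes whose 95% intervals include 0. Leaving out 1 mouse each gave these ranges: Adora2a -0.042 to 0.10, Chrna7 -0.0015 to 0.086, Clic6 -0.22 to 0.028, Drd1 -0.11 to 0.023, Drd3 -0.076 to 0.078, Enpp2 -0.044 to 0.065, Junb -0.017 to 0.075, Kcne2 -0.024 to 0.10, Nr3c1 -0.042 to 0.0057, Per1 -0.068 to 0.067, Rpl31 -0.065 to 0.036, Slc18a3 -0.041 to 0.20 and Tsc22d3 -0.019 to 0.075. With array weights Drd1 was 0.029, Kcne2 -0.023, Per1 -0.0069 and Tsc22d3 -0.0056. With the oligodendrocyte and cortical list means as covariates Drd3 was -0.019. With quantile normalization Enpp2 was -0.0043 and Per1 -0.013, and with median centring Per1 was -0.0055. The cause of these reversals was not tested. All alternative values of the 10 named interaction genes, 162 and 168, kept their direction. Most named genes, and all 10 of these, were chosen for a small p in the same contrast. The alternatives also reuse most of the same arrays. Kept directions were thus largely fixed by that choice and give no support to the differences.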
